A study of Mus musculus with 3 samples.

Results

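The miR-34 family is a small group of microRNAs (miRNAs), which guide the repression of messenger RNAs that carry sites for them. It was followed here in the mouse retina through its 6 mature forms, mmu-miR-34a-5p, mmu-miR-34a-3p, mmu-miR-34b-5p, mmu-miR-34b-3p, mmu-miR-34c-5p and mmu-miR-34c-3p. These were all forms listed under miR-34a, miR-34b or miR-34c by name among 1915 mature miRNAs, whatever their level. Retinas of C57BL/6 mice were taken on postnatal days 1, 7 and 17 (here P1, P7 and P17), with no treatment and no genetic change named in the labels. Each library was made from the total RNA of 5 pooled eyes, with 1 library per age. Without replicates, differences between ages cannot be set against a spread, and no test was made. Intervals are 95% intervals of counting error only and do not cover the spread between animals or libraries. PCR copies of a molecule cannot be told from separate molecules in these reads, so the intervals may be too narrow even for counting error. The libraries held 11426320 to 12759995 miRNA reads, and a level of 3 reads, taken as the lowest that the depth can show, was 0.235 to 0.263 RPM (reads of a miRNA scaled to a fixed total of miRNA reads in its library).

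The family has 2 loci. The miR-34a gene stands alone, whereas miR-34b and miR-34c are cut from a shared primary transcript. All are known as direct transcriptional targets of the tumor suppressor p53, and their 5p strands repress cell cycle and survival genes such as Ccnd1, Met and Bcl2. In the body, miR-34a is widely expressed, while miR-34b and miR-34c are known from testis, lung and other tissues with motile cilia, where they act together with the miR-449 miRNAs of the same seed family.

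On GRCm38, the build that mm10 also names, the Mir34a hairpin (ENSMUSG00000065493) lies on the plus strand at chr4:150068454-150068555. It overlaps an exon of Gm37795, an unclassified transcript of the same strand. The Mir34c (ENSMUSG00000065587) and Mir34b (ENSMUSG00000065492) hairpins lie on the minus strand at chr9:51103034-51103110 and chr9:51103562-51103645, with 451 bases between them. They fall inside Btg4 on the opposite strand, with no overlap of an exon. Mature sequences from RefSeq (GRCm38.p6) were found for 5 of the 6 members, all but miR-34c-5p. They are shown, with 2 miR-449 miRNAs, because the seed, bases 2 to 8 and in capitals, groups the members across the loci.

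mmu-miR-34a-5p: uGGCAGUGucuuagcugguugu
mmu-miR-34b-5p: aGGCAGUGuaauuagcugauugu
mmu-miR-449a-5p: uGGCAGUGuauuguuagcuggu
mmu-miR-449c-5p: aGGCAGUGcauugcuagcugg
mmu-miR-34a-3p: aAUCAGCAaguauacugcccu
mmu-miR-34b-3p: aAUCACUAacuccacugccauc
mmu-miR-34c-3p: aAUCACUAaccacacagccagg

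The 5p strands of the separate loci carry the seed GGCAGUG, which 4 of 1679 mature miRNAs with a RefSeq sequence share, the 4 printed first. No sequence was found there for miR-34c-5p or for a further form, miR-449b, so neither could be counted among the 4. The 3p strands of miR-34b and miR-34c share the seed AUCACUA with no other miRNA of that table, and that of miR-34a has a seed of its own, AUCAGCA. Over their whole length miR-34a-5p and miR-34b-5p have an edit distance of 4. The first difference is U1A, counted from the 5′ end with the miR-34a-5p base first. The 3p strands of miR-34b and miR-34c have the same base at 17 of 22 positions. The counting rule of the authors is not given in the sources used here, so reads of near-identical strands may have been split between miR-34b and miR-34c, and their sum is given beside the single forms.

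The b/c cluster gave most of the family's reads at each age, and its level was lower at each later age. Its 4 forms summed to 845 RPM at P1, with a 95% Wilson interval from 828 to 862. The sum was 336 RPM at P7 (326 to 346) and 248 RPM (239 to 257) by P17. Without a pseudocount the level at P17 was 3.41-fold below that at P1, a log2 ratio of -1.77 (exact 95% binomial interval -1.83 to -1.71). In RPM the log2 ratio was -1.33 (-1.38 to -1.28) from P1 to P7 and -0.44 (-0.51 to -0.37) from P7 to P17. This split between the intervals held with RPM only. With a pseudocount of 1, it was -0.37 and -0.35 when libraries were scaled by size factors (medians of ratios, which centre the typical miRNA), -0.34 and -0.38 when scaled by TMM (trimmed means), and -0.71 and -0.68 when the most abundant miRNAs were left out of the total. In a whole retina, fewer cells that make a miRNA and less of it per cell cannot be told apart.

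MiR-34c-5p, the leading strand of the cluster, was read 7732 times at P1, 3529 times at P7 and 2403 times at P17. This gave 677 RPM (662 to 692), 277 RPM (268 to 286) and 206 RPM (198 to 214), and these intervals did not overlap. By abundance it held places 104, 120 and 141. It alone made up 76.0%, 75.8% and 68.1% of the family's reads in age order.

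MiR-34b-5p followed the same course at a lower level, with 1354, 583 and 397 reads or 118.5, 45.7 and 34.05 RPM in age order. Per read of miR-34b-5p there were 5.71, 6.05 and 6.05 reads of miR-34c-5p, so the 5p strands of the cluster stood in nearly the same ratio. Between P1 and P17 that ratio differed by 0.08 on the log2 scale (exact 95% conditional interval -0.09 to 0.26), which counting error covers. This ratio lies within a library and does not depend on how libraries are scaled.

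The 3p strands of the cluster, usually the less stable passenger strands, were rarer and differed more between ages. MiR-34b-3p had 411, 126 and 64 reads in age order, or 36.0, 9.87 and 5.49 RPM. MiR-34c-3p had 159, 47 and 27 reads, or 13.9, 3.68 and 2.32 RPM. From P1 to P17 the log2 ratio was -2.71 (-3.12 to -2.33) for miR-34b-3p and -2.59 (-3.23 to -1.99) for miR-34c-3p, against -1.80 (-1.96 to -1.64) for miR-34b-5p and -1.72 (-1.78 to -1.65) for miR-34c-5p. From P7 to P17 the interval for miR-34c-3p, -1.41 to 0.04, held 0.

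MiR-34a-5p, the single abundant strand of the other locus, behaved differently. It was read 514, 368 and 637 times in age order. The levels were 45.0 RPM (41.3 to 49.0), 28.8 RPM (26.0 to 31.9) and 54.6 RPM (50.6 to 59.0), so in RPM P7 was the lowest of the 3 ages and P17 the highest, without overlap of the intervals. The place of P7 below P1 depended on the scaling, with a log2 difference from P1 to P7 of 0.31 with size factors, 0.33 with TMM factors and -0.017 without the most abundant miRNAs in the total, against -0.62 with RPM. The log2 ratio was -0.64 (-0.84 to -0.45) from P1 to P7, 0.92 (0.73 to 1.11) from P7 to P17 and 0.28 (0.11 to 0.45) from P1 to P17. By abundance it held places 304, 282 and 234 in age order, and miR-34b-5p held places 220, 233 and 268. The number of miRNAs with any read was 1169, 1047 and 1045 in age order. The other strand, miR-34a-3p, had 1, 1 and 0 reads, below the level of 3 reads at every age, and no fold is given for it.

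**Figure D1:**
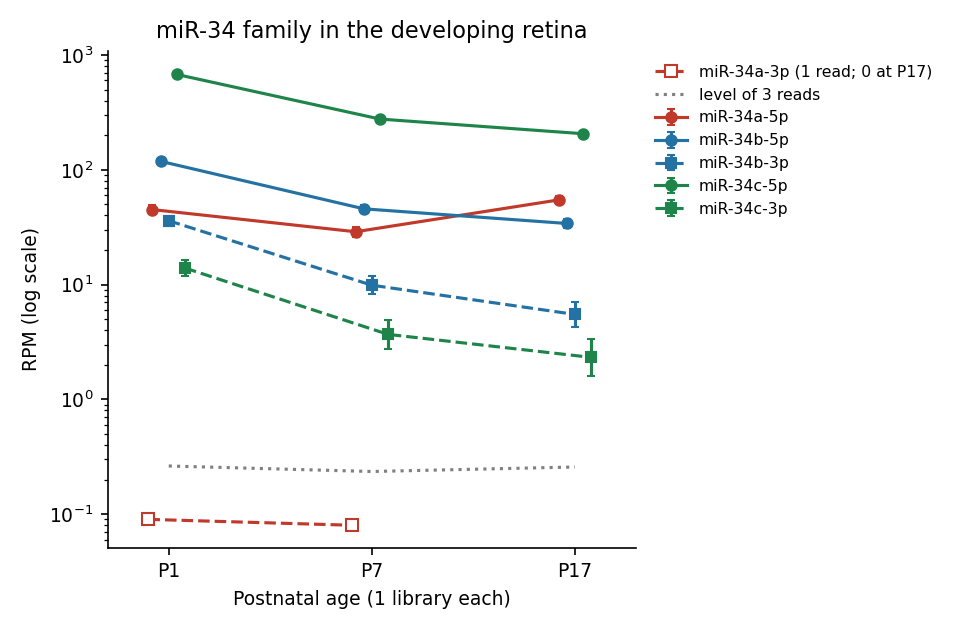
Level of each miR-34 form (RPM, log axis) at P1, P7 and P17, 1 library per age, with 95% Wilson intervals of counting error. The lines of miR-34b and miR-34c run downward, from 677 to 206 RPM for miR-34c-5p, whereas miR-34a-5p goes from 45.0 through 28.8 to 54.6 RPM and crosses miR-34b-5p, and miR-34a-3p (no interval drawn, and not drawn at P17, where it had 0 reads) stays under the dotted level of 3 reads.

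The order of the members changed at a single place. At P1 and P7 it was miR-34c-5p, miR-34b-5p, miR-34a-5p, miR-34b-3p, miR-34c-3p and miR-34a-3p. At P17 miR-34a-5p, with 1.60 reads per read of miR-34b-5p, had passed miR-34b-5p, while at P1 there had been 2.63 reads of miR-34b-5p per read of miR-34a-5p. No neighbours in the order had overlapping Wilson intervals at any age, and the closest were miR-34a-5p (from 41.3 RPM) and miR-34b-3p (up to 39.6 RPM) at P1. Levels of different miRNAs are compared here as reads of whole mature strands, and the efficiency with which each strand enters a library was not measured.

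To compare the loci directly, the reads of miR-34a were expressed as a share of all reads of the family in the same library, which removes the scaling between libraries. The miR-34a locus gave 515 of 10171 family reads at P1, 5.06% (exact 95% interval 4.65 to 5.51). It gave 369 of 4654 at P7, 7.93% (7.17 to 8.74), and 637 of 3528 at P17, 18.1% (16.8 to 19.4). For each miR-34a read there were 18.7, 11.6 and 4.54 reads of the b/c cluster.

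Relative to the cluster, miR-34a was thus 4.13-fold higher at P17 than at P1, a difference of 2.05 on the log2 scale (exact conditional interval 1.87 to 2.23). The larger part came after P7, with 0.69 (0.49 to 0.89) from P1 to P7 and 1.36 (1.16 to 1.56) from P7 to P17. With 5p reads alone the shares were 5.35%, 8.21% and 18.5%, and the log2 difference from P1 to P17 was 2.01 (1.83 to 2.19).

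**Figure D2:**
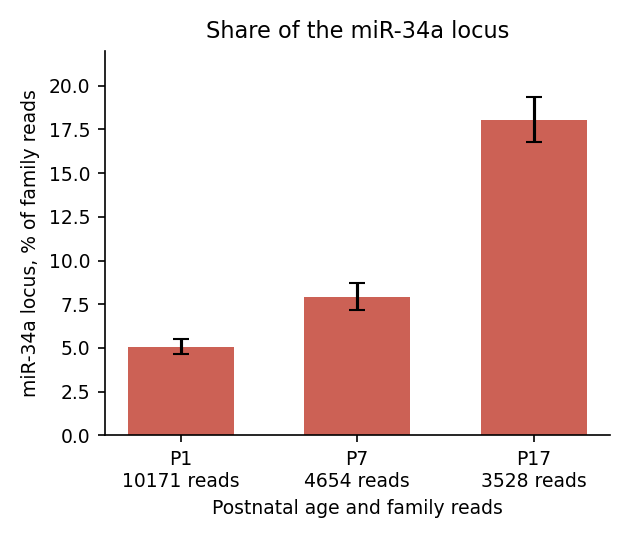
Share of the miR-34 family reads that came from the miR-34a locus (%, bars from 0) at P1, P7 and P17, with exact 95% binomial intervals of counting error and the family reads of each library below. The share goes from 5.06% at P1 through 7.93% at P7 to 18.1% at P17, and the intervals do not overlap.

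Next, the members were set beside all miRNAs that averaged 1 RPM or more across the 3 ages, a filter that 648 miRNAs and 5 of the 6 members passed. Each of these 5 members was above 1 RPM at every age, and miR-34a-3p did not pass. A miRNA was called when log2(RPM + 1) differed over 2-fold between a pair of ages, a scale that understates the changes of rare miRNAs. From P1 to P7 the 4 forms of the b/c cluster were called lower, where 44.8% of all miRNAs were, and none of the 5 was called higher, against 3.09% of all. From P7 to P17 none of the 5 was called in either direction, against 11.6% of all miRNAs lower and 14% higher. From P1 to P17 the 4 forms of the cluster were again called lower, where 46.8% of all were, and miR-34a-5p was not among the 10.5% called higher. These 3 comparisons share libraries.

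Against this background, the lower level of the cluster was not rare. On this scale the summed cluster differed by -1.76 from P1 to P17, against a median of -0.91 for all 648 miRNAs, and 27.8% of them had a lower value. The miR-34a locus differed by 0.27, and 79.6% of miRNAs lay below it. The median of the 5 members was -1.77. Since 4 of them are strands of the cluster, it describes the cluster and not miR-34a-5p (0.27).

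The scaling between libraries moved these values. Median-of-ratios size factors centre the typical miRNA near 0 and moved the median change of all miRNAs from -0.91 to 0.0066 between P1 and P17. With them the cluster differed by -0.37 from P1 to P7, -0.35 from P7 to P17 and -0.72 from P1 to P17, still lower at each later age. The miR-34a locus differed by 0.31 from P1 to P7 in place of -0.62, so the direction of its first interval turned, and by 0.98 from P7 to P17 and 1.29 from P1 to P17. Subtracting the median of all miRNAs removes the scaling apart from the pseudocount, so the scalings are no separate evidence on it. From P1 to P17 the miR-34a locus stood 1.18 above that median with RPM and 1.29 above it with size factors. The cluster differed from the median by -0.85 with RPM and by -0.73 with size factors.

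With size factors, no member was called from P1 to P7, against 11% of all miRNAs lower and 9.57% higher, or from P7 to P17, against 10.6% lower and 16% higher. From P1 to P17, miR-34b-3p (-1.54) and miR-34c-3p (-1.28) were called lower, as were 23.9% of all miRNAs, and miR-34a-5p (1.30) was called higher, as were 25.5%. Of all calls from P1 to P17, 81.7% were toward a lower level with RPM and 48.4% with size factors.

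**Figure D3:**
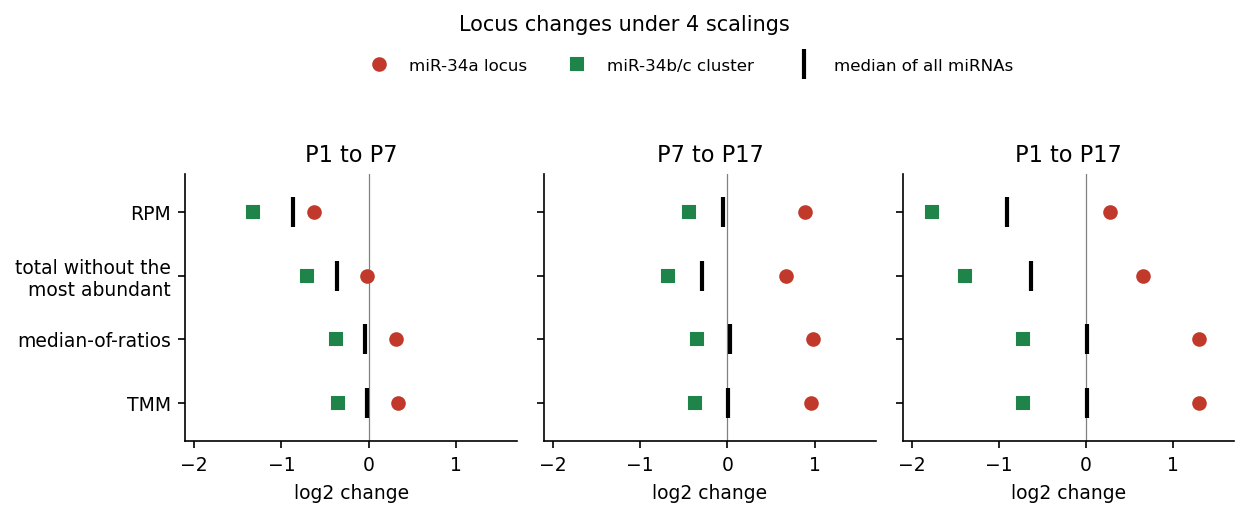
Log2 changes (horizontal axis) of the summed miR-34a locus (circles) and of the summed miR-34b/c cluster (squares) under 4 scalings of the libraries, with the median of the 648 miRNAs (black marks), for P1 to P7, P7 to P17 and P1 to P17. Since a scaling moves all marks of a row together apart from the pseudocount, the order of the marks is the same in every row, with the cluster left of the median, while the miR-34a locus in the first panel moves from -0.62 with RPM to 0.31 with median-of-ratios size factors.

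The miRNAs whose course was nearest to that of each locus were found as the smallest Euclidean distance between the pairs of changes (P1 to P7 and P7 to P17, log2(RPM + 1)) among 647 other miRNAs, over the 3 libraries. For miR-34c-5p the nearest was miR-532-5p, at a distance of 0.029, with 2249, 914 and 694 RPM. MiR-34b-5p came next at 0.069, followed by miR-3098-3p (0.079, on only 5 reads at P17), miR-148b-5p (0.084) and miR-505-5p (0.098, on 10 reads at P17). The pseudocount shrinks the changes of rare miRNAs. MiR-3098-3p (3.85, 1.02 and 0.43 RPM in age order) and miR-505-5p (4.73, 1.33 and 0.86 RPM) are rare, so their distances depend on it. The 3p strands of the cluster were in places 66 (miR-34c-3p) and 132 (miR-34b-3p).

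For miR-34a-5p the nearest were miR-1843b-5p (0.032), miR-1839-5p (0.047), miR-1843a-5p (0.070), miR-412-5p (0.078) and miR-487b-3p (0.080). MiR-1843b-5p stood at 595, 384 and 701 RPM at P1, P7 and P17. That it too was lowest at P7 in RPM follows from how it was chosen. MiR-34a-5p itself was in place 468 from miR-34c-5p, at a distance of 1.48, although it shares the seed of the family.

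**Figure D4:**
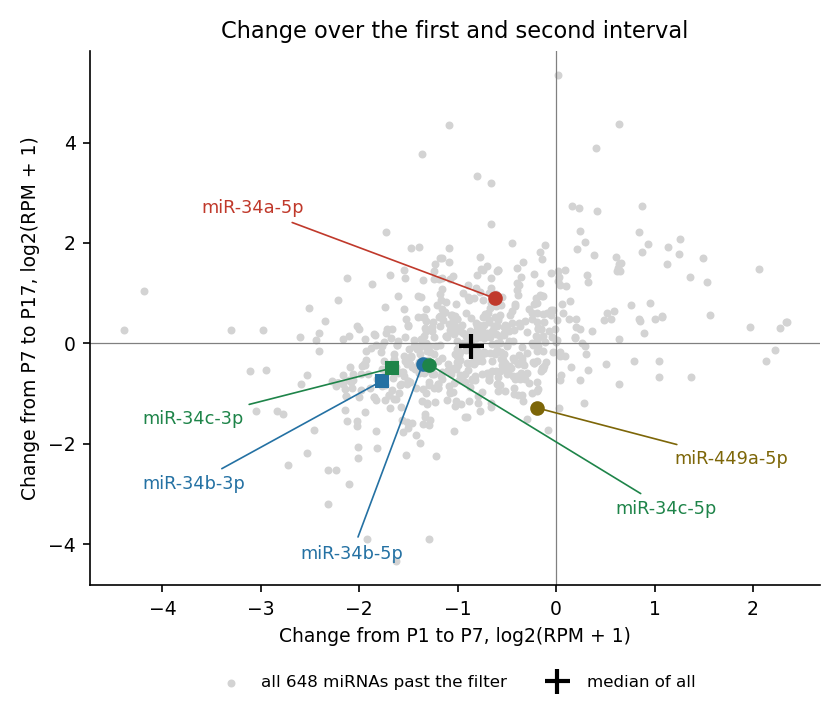
Change from P1 to P7 (horizontal) against change from P7 to P17 (vertical), both in log2(RPM + 1), for the 648 miRNAs past the filter (grey), with their median as a cross. MiR-34b-5p and miR-34c-5p lie almost on each other at -1.36 and -1.29 on the horizontal axis, miR-34a-5p lies above the median at 0.90 on the vertical axis, and miR-449a-5p lies below it at -1.29.

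Both strands of a hairpin can be read, and their ratio within a library is free of the scaling. In miR-34a the 5p strand took 99.8%, 99.7% and 100% of the reads in age order. At P17, with 0 of 637 reads from 3p, the exact 95% interval of the 5p share began at 99.4%. The level of 3 reads, taken as the floor, would be a 3p share of 0.471%. That share lies inside this interval and is no upper limit. In miR-34c the 5p strand took 98.0% (97.7 to 98.3), 98.7% (98.3 to 99.0) and 98.9% (98.4 to 99.3). MiR-34b was the most balanced hairpin, with 76.7% 5p reads at P1 (74.7 to 78.7), 82.2% at P7 (79.2 to 85.0) and 86.1% at P17 (82.6 to 89.1).

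In miR-34b the 5p reads per 3p read went from 3.29 at P1 through 4.63 at P7 to 6.20 at P17, a log2 change of 0.91 from P1 to P17 (exact conditional interval 0.49 to 1.35). In miR-34c they went from 48.6 through 75.1 to 89, a log2 change of 0.87 (0.27 to 1.52). From P7 to P17 alone, both intervals held 0 (-0.06 to 0.92 for miR-34b and -0.47 to 0.99 for miR-34c). The shift toward 5p reads in the pair of hairpins was of ordinary size. Among 165 hairpins with at least 10 reads of each strand in each library the median change from P1 to P17 was 0.22, the middle 90% lay between -1.89 and 1.75, and 38 hairpins had a larger change than miR-34b and 40 a larger change than miR-34c.

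**Figure D5:**
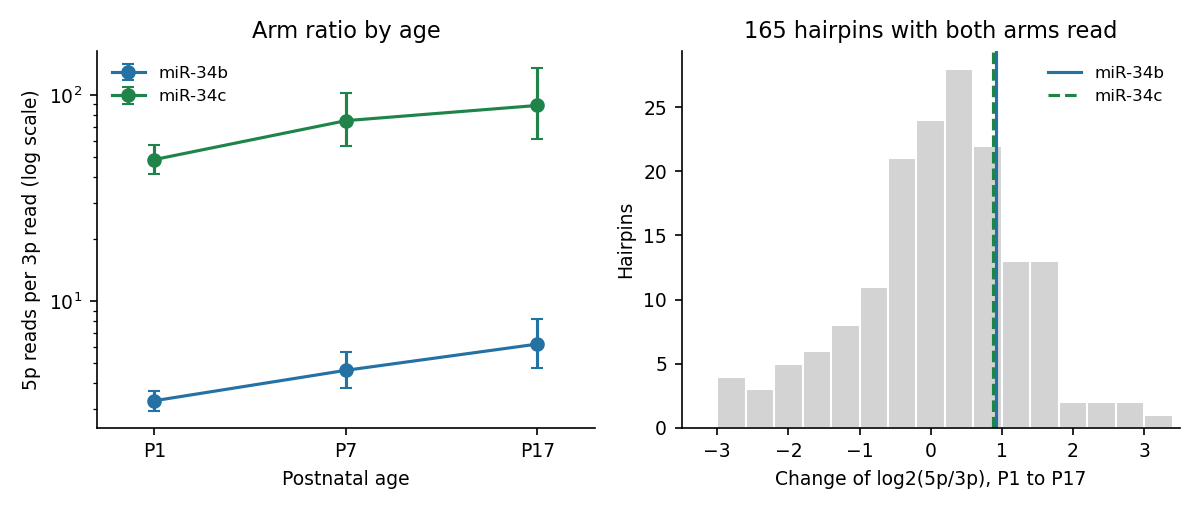
Left, 5p reads per 3p read (log axis) of miR-34b and miR-34c at P1, P7 and P17, with exact 95% intervals of counting error; right, change of log2(5p/3p) from P1 to P17 in 165 hairpins, with miR-34b at 0.91 and miR-34c at 0.87. Both ratios are higher at each later age, and both changes lie inside the bulk of the hairpins.

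The miR-449 miRNAs, which lie on chromosome 13 in Cdc20b, were read as relatives of the family. MiR-449a-5p had 961, 938 and 344 reads in age order, or 84.1, 73.5 and 29.5 RPM. It was thus above miR-34a-5p at P1 and P7 and below it at P17. MiR-449c-5p had 49, 16 and 0 reads. In RPM its level at P1 was 16.7-fold above that of 3 reads in the P17 library, taken as the floor. This fold leaves out the counting error at P1 and depends on the scaling, so it is no lower bound of the difference. The form listed as miR-449b had 1, 0 and 0 reads.

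In RPM the log2 ratio of miR-449a-5p was -0.19 (-0.33 to -0.06) from P1 to P7 and -1.32 (-1.50 to -1.14) from P7 to P17. The timing differed from that of the b/c cluster. Set against the 5p reads of the cluster within each library, which removes the scaling, miR-449a-5p differed by 1.11 (0.97 to 1.25) from P1 to P7 and by -0.89 (-1.09 to -0.70) from P7 to P17. Over the whole period the net difference was 0.22 (0.02 to 0.41). With size factors miR-449a-5p differed by 0.76 from P1 to P7, so its first direction turned as well.

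The 5p strands of the family plus miR-449a-5p, miR-449b and miR-449c-5p summed to 929, 426 and 324 RPM in age order. MiR-34c-5p held 72.9%, 64.9% and 63.6% of these reads. MiR-449a-5p held 9.06%, 17.3% and 9.10%, and miR-34a-5p held 4.84%, 6.77% and 16.8%. The second most abundant of them was therefore miR-34b-5p at P1, with 12.8%, miR-449a-5p at P7 and miR-34a-5p at P17.

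Of 11 other miRNAs linked to p53, by its transcription or by p53-aided processing, 10 passed the filter. With RPM, 2 of the 10 were called lower and 1 higher from P1 to P7, against 44.8% and 3.09% of all miRNAs. From P7 to P17, 0 were called lower and 3 higher, against 11.6% and 14% of all. From P1 to P17, 4 were called lower and 3 higher, against 46.8% and 10.5% of all, and the median of the 10 was -0.38 against -0.91 for all miRNAs. Those lower were miR-200c-3p (-2.80), miR-107-3p (-1.29), miR-15a-5p (-1.13) and miR-192-5p (-1.05). Those higher were miR-145a-5p (3.04) and miR-143-3p (2.92), which are cut from a shared transcript and known from vascular smooth muscle, and miR-22-3p (1.53). With size factors 1 was called lower and 4 higher from P1 to P17, against 23.9% and 25.5% of all, with a median of 0.48 against 0.0066.

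As a check of the tissue, 5 miRNAs of retinal neurons and photoreceptors (miR-124-3p, miR-9-5p, miR-183-5p, miR-96-5p and miR-182-5p) together took 22.4%, 43.2% and 38.8% of the reads in age order. Of these, miR-9-5p was lower at each later age (144259, 125762 and 74010.5 RPM), and the others were higher at P17 than at P1. MiRNAs listed as markers of other tissues were also present. Whether their reads came from those tissues or from the retina itself was not tested. The 3 of lens, cornea and surface epithelium summed to 356, 269 and 645 RPM in age order, and the 3 of muscle to 132, 90.0 and 240.1 RPM. Both sums were lowest at P7 and highest at P17 in RPM, as miR-34a-5p was, and both lay above its level at every age. No single marker of lens, cornea and surface epithelium took that course. MiR-184-3p was lowest at P1 (101, 119 and 569 RPM in age order). MiR-203-3p (253, 150 and 75.7 RPM) and miR-205-5p (2.71, 0.31 and 0.69 RPM) were highest at P1. Of the muscle markers, miR-1a-3p (112, 65.1 and 217 RPM) and miR-133a-3p (4.81, 2.12 and 6 RPM) took it. MiR-206-3p (15.75, 22.73 and 16.9 RPM) was highest at P7. The 4 of blood summed to 162, 116 and 158 RPM, and the 2 of the pigment epithelium and ciliary body took 1.52%, 0.723% and 1.43% of the reads. In RPM each sum was lowest at P7. Of the blood markers, miR-451a (45.5, 11.7 and 27.9 RPM) and miR-486a-5p (115, 103 and 125 RPM) were lowest at P7. MiR-144-3p (1.14, 1.18 and 4.46 RPM) and miR-223-3p (0.18, 0.24 and 0.6 RPM, on 2 to 7 reads) were lowest at P1. Both miR-204-5p (14661.5, 6967 and 9019 RPM) and miR-211-5p (550, 259 and 5315 RPM) were lowest at P7. The part of these tissues in the course of miR-34a-5p was not tested. The 3 miR-449 forms, taken as markers of multiciliated epithelium, summed to 88.5, 74.8 and 29.5 RPM in that order. Most of this sum was miR-449a-5p (84.1, 73.5 and 29.5 RPM). MiR-449a-5p and miR-449c-5p were lower at P17 than at P1, as the b/c cluster was, and miR-449c-5p was at 0 at P17. MiR-449b, with 1, 0 and 0 reads, was below the level of 3 reads at every age and gives no change. The part of the miR-449 forms in the difference of the cluster was not tested.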

How the data were processed

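Small RNA libraries were made from total RNA of pooled retinas with the NEBNext small RNA kit, per the labels. Adaptor trimming and removal of poor reads by the authors preceded alignment to mm10, with HISAT2 per the methods, while the submitters' processing notes name BWA and FastQC without a role. The miRNA annotation and the counting rule are not given in the sources used here. The deposited files give a read count for each mature miRNA. The authors also deposited RPM values, which match each count over the library's summed counts to within 0.0192 RPM.

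RPM was used as given, with a pseudocount of 1 RPM on the log2 scale. Intervals were Wilson for levels, exact binomial for shares and for ratios of 2 libraries, and exact conditional for ratios of ratios. Such intervals compare libraries, not ages. No adjusted p-value could be had with 1 library per age, so only the fold criterion of the methods was used. Size factors came from the 644 filtered miRNAs that had reads at all ages, and TMM factors from edgeR 4.0.16 on the miRNAs past the filter. Alternatives were pseudocounts of 0.1 and 5 RPM and none, filters of none and 10 RPM, folds of 1.5 and 4, 3 other scalings, and 5p or 3p reads alone. Named miRNAs were the 6 members, those with the seed of miR-34a-5p, the 5 nearest in course to the leading strand of each locus, the p53-linked list and the tissue markers. The members and lists were chosen with earlier results of these data known. Hairpin positions came from GENCODE M21. The steps were tested on simulated data. Software was R 4.3.3, matplotlib 3.10.9, scipy 1.17.1, pandas 2.3.3, numpy 2.4.6 and Python 3.11.15.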

Additional observations from a re-analysis of the deposited data

How the results depend on the processing

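The share of the miR-34a locus, its change relative to the b/c cluster and the arm ratios lie within a library and do not depend on the scaling. Levels did, and values were taken as moved when they shifted by over 0.5 times the width of their counting interval, and counts when not within 1.5 times. With median-of-ratios size factors the miR-34a locus differed by 0.31, 0.98 and 1.29, against -0.62, 0.89 and 0.27 with RPM, and the cluster by -0.37, -0.35 and -0.72 from P1 to P7, P7 to P17 and P1 to P17, against -1.33, -0.44 and -1.76. TMM factors gave 0.34, 0.96 and 1.29 for the locus, and -0.34, -0.38 and -0.72 for the cluster, over the same 3 comparisons. When the total left out the 10 most abundant miRNAs of each library, the values were -0.016, 0.67 and 0.65 for the locus and -0.71, -0.68 and -1.39 for the cluster. The cluster's larger difference before P7 than after it was thus nearly gone with size factors and with this total, and turned with TMM factors. Neither pseudocount, nor its absence, nor 5p reads alone moved these 6 values. The miR-34a share was 0.175%, 0.575% and 0% at P1, P7 and P17 with 3p reads alone, which rest on 1, 1 and 0 miR-34a reads, and 4.61%, 6.58% and 16.5% with the miR-449 forms added to the denominator. The numbers of miRNAs called lower and higher from P1 to P17 were 303 and 68 with RPM, 155 and 165 with size factors, 155 and 165 with TMM factors, and 141 and 38 at a fold of 4. Of 105 alternative values for single members and miR-449 miRNAs, 42 moved and 5 changed sign, all 5 for miR-34a-5p or miR-449a-5p from P1 to P7. The values of miR-449c-5p from P7 to P17 and from P1 to P17 could not be judged. It had no read at P17, so its counting interval had no width to set a shift against. These values are among the 105 and count as not moved, so 42 may be too low. The cause of the shifts was not tested. Depth limits miR-34c-3p, with 27 reads at P17, and gives no change for miR-34a-3p. No paired analysis was possible because only 1 library was made per age.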

Other observations

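The strands of the related hairpin miR-449a also shifted toward 5p. In age order there were 43.7, 93.8 and 344 reads of its 5p strand for each 3p read, on 22, 10 and 1 reads of miR-449a-3p. The log2 change from P1 to P17 was 2.98, with an exact conditional interval of counting error from 0.34 to 8.35, so that its size is poorly fixed. This hairpin was singled out after its values were seen.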
